A study of Mus musculus with 48 samples.

Results

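The transcription factors that set up the trophectoderm were examined at 8 genes, Tead4, Cdx2, Gata3, Eomes, Tfap2c, Elf5, Ascl2 and Hand1, of 21883 protein-coding genes in all. The members were listed by name, and their values are those of regions within 1 kb of either end of the gene (mm10, the same assembly as GRCm38). ChIP-seq, which measures how often DNA is bound by a protein or carries a histone mark, was done in mouse embryonic stem (ES) cells for 9 targets in 48 samples, as 24 groups of 2 libraries. The double knockout (Zbtb11KO Zfp131KO, in the line iZbtb11-HA iZfp131-V5), Zbtb11KO (iZbtb11-HA) and Zfp131KO (iZfp131-HA) were compared with wildtype cells of the line iCre, and the labels write all 4 as Ainv15 lines. All targets other than HA were taken after 3 days without doxycycline in medium with LIF and without the 2 kinase inhibitors (2i), and HA was taken with doxycycline and 2i, so the binding of ZBTB11 and ZFP131 was measured in another culture than the other targets. Since the labels name 1 line per genotype and do not say that the libraries are separate cultures, a knockout and a difference between lines cannot be told apart, and p-values measure only the spread between these libraries.

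The trophectoderm is the outer epithelium of the blastocyst and the source of the placenta, while ES cells stem from the inner cell mass. TEAD4, the DNA-binding partner of the Hippo effector YAP, acts upstream and turns on Cdx2 and Gata3; CDX2, EOMES, TFAP2C and ELF5 sustain trophoblast stem cells, and ASCL2 and HAND1 act later, in the spongiotrophoblast and in giant cells. In ES cells such lineage genes are commonly held in a bivalent state, with H3K4me3, a mark of promoters, beside H3K27me3, the mark of Polycomb repression. NELF holds RNA polymerase II in a paused state just after the start of transcription, and the title of the study names pausing at pro-differentiation genes by ZBTB11 and ZFP131 as its subject.

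In mm10, Tead4 lies at chr6:128227143-128300813, Cdx2 at chr5:147300900-147307249, Gata3 at chr2:9857078-9887953 and Eomes at chr9:118478186-118486132. Tfap2c lies at chr2:172545678-172558622, Elf5 at chr2:103412098-103450989, Ascl2 at chr7:142966822-142969264 and Hand1 at chr11:57828713-57832147. Non-coding RNA genes share a window with 3 of them: Gm33408 and Gm33460 at Eomes, 9230102O04Rik at the right end of Gata3 and Gm32915 at Hand1. The left end of a gene is the one with the lower coordinate.

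Promoter sequences are shown for 4 members that span the range of CpG content, since CpG-rich starts are the usual sites of H3K4me3 and of Polycomb in ES cells. They are the RefSeq entries of GRCm38.p6, each 300 bases from 250 before to 50 after a start site, on the gene's strand from 5′ to 3′, with every CG dinucleotide in capitals (read the same on both strands). The Ascl2 entry is chr7:142969215-142969514 (minus), the Cdx2 entry chr5:147307200-147307499 (minus), the Eomes entry chr9:118477939-118478238 (plus) and the outer Elf5 entry chr2:103411848-103412147 (plus).
Ascl2: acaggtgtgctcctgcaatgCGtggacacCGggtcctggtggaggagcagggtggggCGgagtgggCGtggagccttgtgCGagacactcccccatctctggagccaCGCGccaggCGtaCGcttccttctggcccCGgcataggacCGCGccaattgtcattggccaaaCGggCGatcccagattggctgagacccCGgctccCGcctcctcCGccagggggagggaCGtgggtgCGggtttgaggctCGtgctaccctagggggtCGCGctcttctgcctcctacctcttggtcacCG
Cdx2: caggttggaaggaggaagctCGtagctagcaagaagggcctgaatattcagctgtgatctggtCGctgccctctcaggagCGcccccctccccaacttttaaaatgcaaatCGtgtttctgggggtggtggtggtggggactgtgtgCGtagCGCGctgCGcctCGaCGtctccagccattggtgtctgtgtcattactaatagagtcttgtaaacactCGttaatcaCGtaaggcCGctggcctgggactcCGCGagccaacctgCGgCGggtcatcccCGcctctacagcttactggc
Eomes: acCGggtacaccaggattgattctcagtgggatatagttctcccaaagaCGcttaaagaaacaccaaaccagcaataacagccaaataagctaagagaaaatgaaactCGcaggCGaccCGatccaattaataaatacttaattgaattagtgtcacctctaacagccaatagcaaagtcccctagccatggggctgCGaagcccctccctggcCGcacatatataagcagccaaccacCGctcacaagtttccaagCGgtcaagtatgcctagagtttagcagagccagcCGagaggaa
Elf5: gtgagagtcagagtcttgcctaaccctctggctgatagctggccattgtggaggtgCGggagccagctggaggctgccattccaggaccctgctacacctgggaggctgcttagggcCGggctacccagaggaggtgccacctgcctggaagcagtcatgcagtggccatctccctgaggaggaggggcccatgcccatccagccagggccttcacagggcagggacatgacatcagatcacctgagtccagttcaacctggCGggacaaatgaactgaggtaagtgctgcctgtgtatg
The CG count was 23 in the Ascl2 entry, 18 in that of Cdx2, 10 in that of Eomes and 3 in the outer one of Elf5, against a median of 7 and quartiles of 3 and 20 over 32851 entries. At least as many were held by 21.5% of entries for Ascl2, 29.7% for Cdx2, 43.5% for Eomes and 76.7% for Elf5. The inner Elf5 entry, 11970 bp into the gene, held 10, and the Gata3 entry, 9353 bp from the nearest gene end, held 22. Entries matched 5 of the 8 members; Tead4, Tfap2c and Hand1 are named only. The start of Gata3 in this table therefore lies outside the windows, and values inside the gene are given for Gata3 and Tfap2c as well.

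In wildtype ES cells, 6 of the 8 genes carried listed domains of both H3K4me3 and H3K27me3 at their ends (Tead4, Cdx2, Eomes, Tfap2c, Ascl2 and Hand1), against 22.5% of all protein-coding genes. H3K4me3, with or without the other mark, was listed at the same 6 members in every genotype, and at 64.8% of genes in the double knockout, 63.2% in Zbtb11KO, 63.7% in Zfp131KO and 64.2% in wildtype. H3K27me3 was listed at 7 of 8 members in Zbtb11KO, Zfp131KO and wildtype, and at 26.9%, 27.8% and 24.6% of genes in that order, whereas H3K27ac, a mark of active promoters and enhancers, was listed at 2 of 8 and at 46.2% of genes. The same 6 genes carried both marks in Zbtb11KO, where 22.9% of genes did, and in Zfp131KO, where 24.8% did. Domain reads in these lists are sums over the replicates and are not scaled for depth or length.

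Cdx2 was covered from end to end by a single H3K27me3 domain of 9898 bp with 6153 reads, at rank 28 of 43446 domains by reads. Eomes held 4526 H3K27me3 reads at its ends, Hand1 4039 and Ascl2 2433, and their leading domains ranked 127, 159 and 315. Gata3 held 1559 reads, Tead4 1108 and Tfap2c 1078. For H3K4me3 the order was another one, with 3141 reads at Tead4, 2656 at Eomes, 1548 at Tfap2c, 1320 at Ascl2, 1013 at Cdx2 and 511 at Hand1. Tead4 was thus high in H3K4me3 and low in H3K27me3 among the members, and Cdx2 and Hand1 the reverse. No replicate spread is given by the lists, so neighbours in these orders could not be tested.

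Polymerase II phosphorylated at serine 5, the form at early transcription, was listed at 4 of 8 members (57.4% of genes): 336 reads at Tfap2c, 211 at Tead4, 170 at Eomes and 13 at Ascl2. Cdx2, Gata3, Elf5 and Hand1 had no such domain. NELF events were listed at 7 of 8 members (59.3% of genes), with 689.6 reads at Eomes, 607.2 at Tead4, 301.6 at Ascl2, 275.6 at Hand1, 247.9 at Cdx2, 185.4 at Tfap2c and 49.0 at Gata3. NELF was therefore listed at Cdx2, Gata3 and Hand1 without a polymerase domain in the windows. SETD1A, a methyltransferase for H3K4, was listed at 6 members (43.7% of genes), from 66.5 reads at Hand1 to 214.3 at Eomes. SIN3A, a scaffold of histone deacetylase complexes, was listed at 6 (60.5% of genes), from 210.6 reads at Hand1 to 1059.4 at Tead4. CHD4, the remodelling ATPase of the NuRD complex, was listed at Tead4 alone with 62.7 reads, where 11.3% of genes had an event.

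Elf5 had no event or domain within 1 kb of its ends in any of the 23 lists, and 6209 of 21883 genes had none in the 8 wildtype lists of chromatin targets. Inside the Elf5 gene, 2 wildtype H3K27me3 domains with 27 reads in sum were listed. At Gata3 and Tfap2c most of the H3K4me3 and NELF signal lay inside the annotated gene. Over the whole gene and 1 kb on either side, Gata3 held 1148 H3K4me3 reads (0 at its ends), 7494 H3K27me3 reads and 322.4 NELF reads in wildtype. Tfap2c held 5901 H3K4me3 reads, 1292.8 NELF reads and 2178 reads of serine-5 polymerase.

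**Figure D1:**
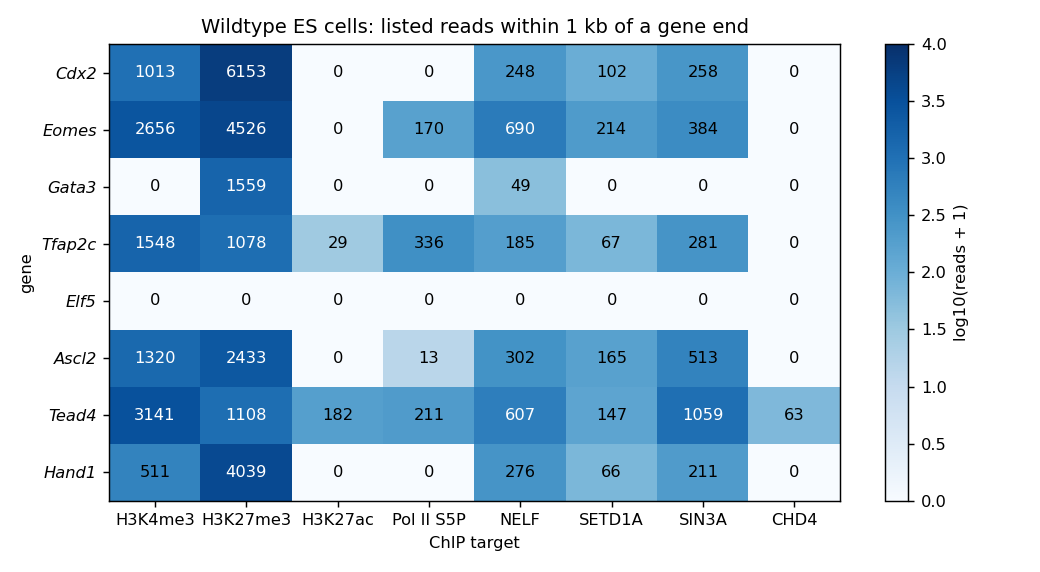
Listed reads within 1 kb of a gene end in wildtype ES cells, with genes down the page, ChIP targets across and the colour giving log10(reads + 1); reads are sums over replicates and are not scaled between targets. Cdx2 and Hand1 have their highest values in H3K27me3 (6153 and 4039 reads), Tead4 in H3K4me3 (3141 reads), and Elf5 is at 0 throughout.

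The likeness of wildtype patterns was measured as the Euclidean distance of log2(listed reads + 1) over the 8 lists, each a pool of 2 libraries (1 is named for NELF). The closest protein-coding gene outside the members was Mn1 for Eomes (distance 0.58), B3gnt6 for Gata3 (0.42), Gm46866 for Ascl2 (0.46), Plekhg3 for Tead4 (1.40) and Mypop for Tfap2c (1.37). The same gene, the homeobox gene Nkx1-1, was closest to both Cdx2 (0.76) and Hand1 (0.73).

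ZBTB11 was found at 3 of 8 members and ZFP131 at 2 of 8, in the lists of HA-tagged protein. For ZBTB11 35.9% of all genes had an event within 1 kb of an end, and for ZFP131 10.2%. Tead4 had 3 ZBTB11 events at its right end, with 66.3, 89.0 and 64.0 reads, and 1 ZFP131 event with 60.3 reads. Eomes had 1 event of each, 503 and 547 bp into the gene, with 48.9 ZBTB11 and 35.2 ZFP131 reads. Ascl2 had 1 ZBTB11 event with 57.7 reads, 171 bp inside its right end, and its nearest ZFP131 event lay 433542 bp away. None of these was among the strongest events of its list: the 5 ZBTB11 events ranked between 9222 and 17488 of 22448 by reads, and the 2 ZFP131 events ranked 2492 and 3407 of 3637.

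ZBTB11 events also lay inside 6 of the genes, outside the windows. Just past the windows, Ascl2 held a ZBTB11 event of 103.1 reads and Eomes one of 71.6 reads. Elf5 held a ZBTB11 event of 329.9 reads at position 103440002, 10987 bp from its right end and at rank 2006. Tfap2c held a ZBTB11 event of 242.3 reads at 172550885 (rank 2889) and ZFP131 events of 118.2 and 67.2 reads, the nearer one 5141 bp from its left end. Cdx2 held a ZBTB11 event of 57.3 reads 2416 bp inside its right end. Gata3 held 2 ZBTB11 events, of 44.0 reads at position 9877406 and 40.3 reads at 9882848, each farther from a gene end than an event 3947 bp outside its left end. The nearest ZBTB11 event of Hand1 lay 26523 bp away. For ZFP131 the nearest events of Hand1, Cdx2 and Gata3 lay 176455, 352027 and 895124 bp from a gene end.

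Less NELF was listed at the members in each knockout, where fewer cells with NELF and less NELF per cell cannot be told apart. A gene with no listed event is one under the authors' threshold, not one shown to lack NELF. For NELF the list headers name 1 library for wildtype but 2 for each knockout, and the lists hold 9946 events in the double knockout, 18009 in Zbtb11KO and 20265 in Zfp131KO, against 60923 in wildtype. Sums of reads over events move with how many events were called. Per 10 M total reads, Eomes had 16.4 in the double knockout, 32.8 in Zbtb11KO and 31.0 in Zfp131KO, against 114 in wildtype. Tead4 had 43.6 in the double knockout, 81.7 in Zbtb11KO and 66.4 in Zfp131KO, against 100 in wildtype. Eomes thus lay far under wildtype in all 3 knockouts, while Tead4 kept most of its reads in the single ones. Ascl2 had 14.5 in the double knockout, 13.2 in Zbtb11KO and 19.3 in Zfp131KO, against 49.9 in wildtype. Cdx2 had 11.3 in the double knockout and 11.1 in Zfp131KO, against 41.0 in wildtype, and no event was listed in Zbtb11KO. The Cdx2 event of the double knockout lay 866 bp beyond the left end, whereas the wildtype events of the windows lay at the right end, where the promoter entry is. Hand1 had 10.1 in the double knockout and 11.2 in Zbtb11KO, against 45.6 in wildtype, with none listed in Zfp131KO. Tfap2c had 16.1 in Zbtb11KO and 11.6 in Zfp131KO, against 30.6 in wildtype, with none listed in the double knockout. At Gata3 an event was listed in wildtype (8.1) and in none of the 3 knockouts. That event lay 681 bp beyond the left end, the 3′ end of this minus-strand gene, and not at its promoter entry. Wildtype was thus the highest of the 4 genotypes at each of the 7 genes. Inside Gata3 and outside the windows, Zfp131KO listed 1 event of 78.6 reads at position 9879277, where the whole gene held 322.4 reads in wildtype and none in the double knockout or Zbtb11KO. Over the whole Tfap2c gene, 101.7 reads were listed in the double knockout (at position 172550818), 177.2 in Zbtb11KO and 445.6 in Zfp131KO, against 1292.8 in wildtype.

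**Figure D2:**
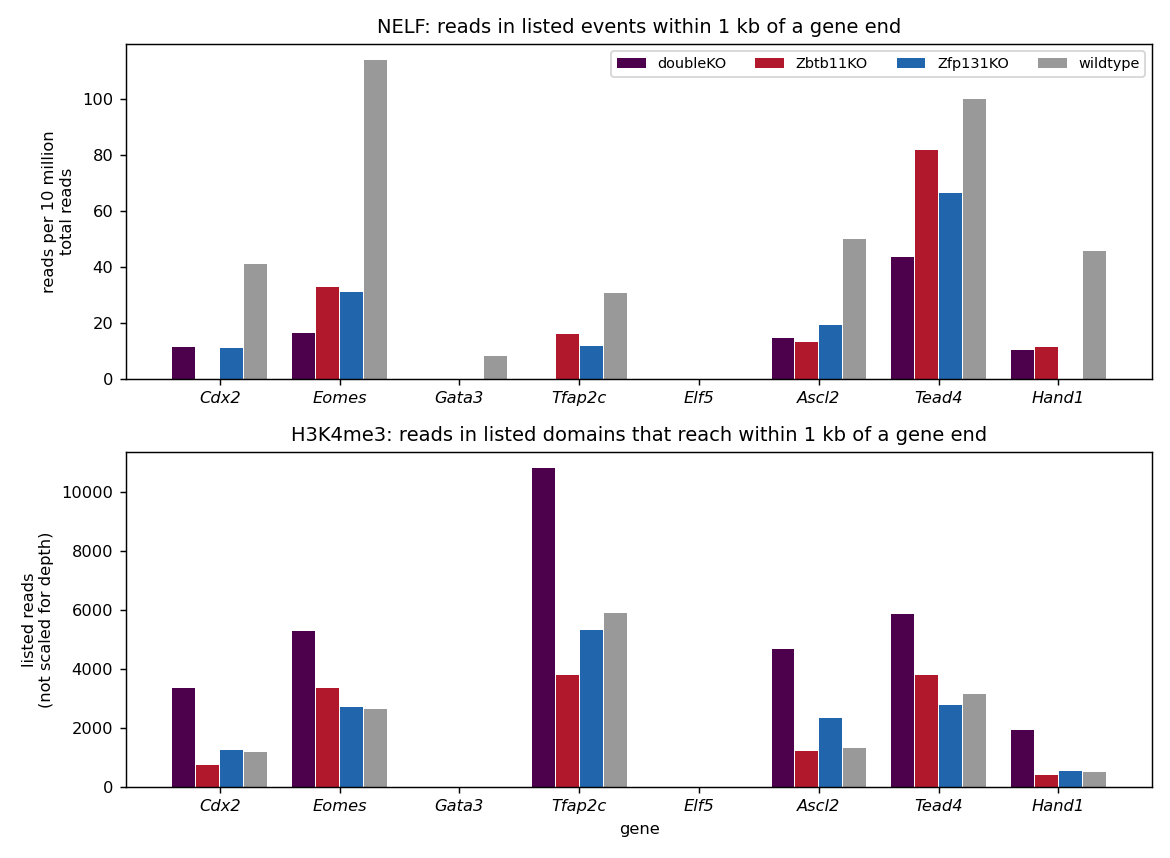
Listed reads at the 8 genes in the double knockout, Zbtb11KO, Zfp131KO and wildtype (bars from left to right): NELF per 10 M total reads above (header naming 1 library for wildtype and 2 for each knockout), and H3K4me3 reads over stretches joined across genotypes, as sums of both replicates with no scaling for depth, below. For NELF the wildtype bar is the highest at each gene with an event (8.1 to 114), and for H3K4me3 the double knockout bar is the highest at each gene with a domain (1922 to 10821).

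NELF was listed at 5 of 8 members in each knockout, and at 29.1% of genes in the double knockout, 42.9% in Zbtb11KO and 44% in Zfp131KO. In the double knockout, 5 of the 6 members with at least 50 wildtype NELF reads had an event in the windows, Cdx2 at its other end, against 49.2% of the 12905 such genes. The ratio to wildtype, scaled by total reads, was 0.434 at Tead4 (95% exact interval 0.378 to 0.499, counting error only), 0.291 at Ascl2 (0.231 to 0.365), 0.220 at Hand1 (0.168 to 0.287) and 0.145 at Eomes (0.118 to 0.176). Cdx2 gets no ratio, since its double knockout and wildtype events lay at different ends. These 4 were at most 0.5 of wildtype, as were 92.6% of genes, and their median log2 ratio was -1.98, against -1.76 over all genes listed in both. In the windows of Eomes 1 event was listed in the double knockout and 5 in wildtype, and in those of Tead4 2 in each, so the ratios of the 2 genes are not ranked. Reads were also scaled by the sum of reads over the listed events (2.5 M in the double knockout, 12 M in wildtype) in place of total reads. On that scale the ratio was 2.47 at Tead4, 1.65 at Ascl2, 1.26 at Hand1 and 0.819 at Eomes. The headers give other shares, 5.1% of double knockout reads and 23.1% of wildtype reads in events, which were not used for this scaling. The 2 double knockout libraries had 2.7% and 8% of reads in events, and the part of this in the result was not tested.

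In Zbtb11KO, 5 of 6 members had an event in the windows (72.5% of genes), with a median log2 ratio of -1.79 against -0.91 over all genes. In Zfp131KO, 5 of 6 had one (74.2% of genes), with a median of -1.41 against -0.73. At most 0.5 of wildtype were 3 members in Zbtb11KO (44.3% of genes) and 4 in Zfp131KO (34.2% of genes). Scaled by the reads in events, the Zbtb11KO ratios were 1.98 at Tead4, 1.28 at Tfap2c, 0.7 at Eomes, 0.646 at Ascl2 and 0.596 at Hand1, where 9.8% of Zbtb11KO reads and 23.1% of wildtype reads lay in events. The Zfp131KO ratios on that scale were 1.38 at Tead4, 0.807 at Ascl2, 0.789 at Tfap2c, 0.566 at Eomes and 0.564 at Cdx2. By the headers, 9.8% of Zbtb11KO, 11.4% of Zfp131KO and 23.1% of wildtype reads lay in events, shares not used for this scaling. The 3 comparisons share the wildtype list.

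The statistical test for NELF came from the authors' deposited DESeq2 table of Zbtb11KO against wildtype, in which fold changes are log2, positive means higher in the knockout and a difference counts as called below an adjusted p of 0.05. Eomes and Hand1 were lower at their region of highest mean signal, 2 of 7 members tested. Over all genes 55.3% were called lower and 0.0901% higher, and 7 members are too few to tell the shares apart. In the authors' deposited table the change was -1.27 ± 0.42 (± SE throughout, adjusted p = 0.0101) at Eomes (chr9:118478840-118479359) and -1.42 ± 0.54 (adjusted p = 0.0241) at Hand1 (chr11:57827713-57828213). The Hand1 region lay outside the gene, beyond its left end, and Hand1 has no promoter entry to place its start. For the members not called, the authors' deposited table gave -0.51 ± 0.34 at Tead4, -0.83 ± 0.49 at Cdx2, -0.89 ± 0.68 at Gata3, -0.60 ± 0.49 at Tfap2c and -0.65 ± 0.66 at Ascl2 (adjusted p 0.131 to 0.361). Their median was -0.83 over the 7 members, against -0.97 over genes and -1.04 over all regions. Centred on that median of -1.04, Eomes stood at -0.23 and Hand1 at -0.39, neither past the threshold, and the other 5 turned to between 0.15 and 0.53. Of all regions compared, 99.2% overlapped the wildtype list and 48.8% the Zbtb11KO list. Regions over the wildtype list alone had a median of -1.29, and those over the Zbtb11KO list alone 0.88. The part of this choice of regions in the lower values was not tested.

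Other regions at the same genes differed from the leading one. At the right end of Ascl2, where its promoter entry lies, the authors' deposited table gave -1.61 ± 0.52 (adjusted p = 0.00905) and -1.82 ± 0.52 (adjusted p = 0.00364). At Cdx2, a region 636 bp or more inside the right end had -1.36 ± 0.55 (adjusted p = 0.0344) and the region over the right end itself -0.28 ± 0.57 (adjusted p = 0.649) in the authors' deposited table. At the ends of Eomes the authors' deposited table held 6 further regions, some of them overlapping, at -1.28 to -2.40 with adjusted p of 0.03 or lower. Inside Tfap2c, at the strongest NELF region of the gene (chr2:172550584-172551097), the authors' deposited table gave -1.65 with an adjusted p of 0.000332. At Hand1, the region nearest a gene end had -0.42 with an adjusted p of 0.528 in the authors' deposited table.

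H3K4me3 was higher in the double knockout at every member that had it, in reads not scaled for depth. Over stretches made by merging overlapping domains of the 4 genotypes, Hand1 had 1922 reads in the double knockout against 511 in wildtype, a ratio of 3.76 (95% exact interval 3.41 to 4.15, counting error only). Ascl2 had 4682 reads in the double knockout against 1320 in wildtype, a ratio of 3.55 (3.34 to 3.77), and Cdx2 had 3340 in the double knockout against 1194 in wildtype, a ratio of 2.80 (2.62 to 2.99). In the double knockout Eomes had 5297 reads, Tead4 5876 and Tfap2c 10821, against 2656, 3141 and 5901 in wildtype, which are ratios of 1.99, 1.87 and 1.83. The 3 members with the fewest wildtype H3K4me3 reads had the 3 highest ratios. Wildtype reads are also the denominator of the ratio, and a link between the 2 was not tested. At least 2 times wildtype were 3 of 6 members, against 19.7% of genes, and 90.1% of genes lay above wildtype. The median log2 ratio of the members was 1.24, against 0.72 over genes. Scaled by the sum of reads over all domains (59.5 M in the double knockout, 35.1 M in wildtype), ratios were 2.22 at Hand1, 2.09 at Ascl2, 1.65 at Cdx2 and 1.08 to 1.18 at Tfap2c, Tead4 and Eomes. The number of reads per library is not known for the domain lists, so a deeper library and a higher mark cannot be told apart in the unscaled ratios.

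Listed domains of the members were also wider in the double knockout, whose whole list held 59542 domains, against 48733 in wildtype. Widths over all genes were not taken, and a deeper library and a wider mark cannot be told apart here either. The single domain of Tfap2c in the double knockout spanned 6729 bp, where wildtype listed 2 main domains of 2923 and 3124 bp with 1548 and 4311 reads. At the right end of Cdx2 a domain of 3099 bp with 2595 reads was listed in the double knockout, against 1392 bp with 682 reads in wildtype. Inside Gata3, 4454 reads over 6108 bp were listed in the double knockout, 1226 reads in Zbtb11KO and 2134 reads in Zfp131KO, against 1148 reads over 2908 bp in wildtype.

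In the single knockouts the members' H3K4me3 reads lay nearer to wildtype. Zbtb11KO had 3340 reads at Eomes, 3782 at Tead4, 3794 at Tfap2c, 1200 at Ascl2, 736 at Cdx2 and 413 at Hand1. Zfp131KO had 2725 reads at Eomes, 2778 at Tead4, 5319 at Tfap2c, 2326 at Ascl2, 1241 at Cdx2 and 537 at Hand1. Ascl2 in Zfp131KO stood out with 1.76 times its wildtype reads, and 97.7% of genes had as low a ratio. In the authors' deposited table for Zfp131KO, Ascl2 was higher by 1.06 ± 0.28 (chr7:142967253-142969672, adjusted p = 0.00109) and Eomes by 0.37 ± 0.14 (chr9:118477537-118479972, adjusted p = 0.0263). That was 2 of 6 members tested, where 33.4% of genes were called higher and 4.18% lower, a share of members like that of all genes. The other 4 ranged from -0.18 ± 0.83 at Hand1 to 0.48 ± 0.50 at Cdx2 in the authors' deposited table, with adjusted p of 0.345 to 0.942.

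In the authors' deposited table for Zbtb11KO, H3K4me3 was higher at Eomes (2.68 ± 0.10, adjusted p = 1.29e-144) and at Tead4 (2.35 ± 0.10, adjusted p = 1.3e-129), and lower at Tfap2c (-0.55 ± 0.21, adjusted p = 0.0266). The background was 43% of genes higher and 24.8% lower, and 2 and 1 of 6 members are too few to tell from these shares. In this deposited table the fold change moved with the signal: its median was 1.41 in the 10% of regions with the highest mean signal, where Eomes and Tead4 lie, and -1.71 in the 10% with the lowest. Listed reads at the same genes were 1.26 times wildtype at Eomes and 1.20 times at Tead4. The members not called were Cdx2 (0.23 ± 0.28), Ascl2 (-0.04 ± 0.21) and Hand1 (-1.24 ± 0.55), with adjusted p of 0.56, 0.896 and 0.0678 in the authors' deposited table.

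**Figure D3:**
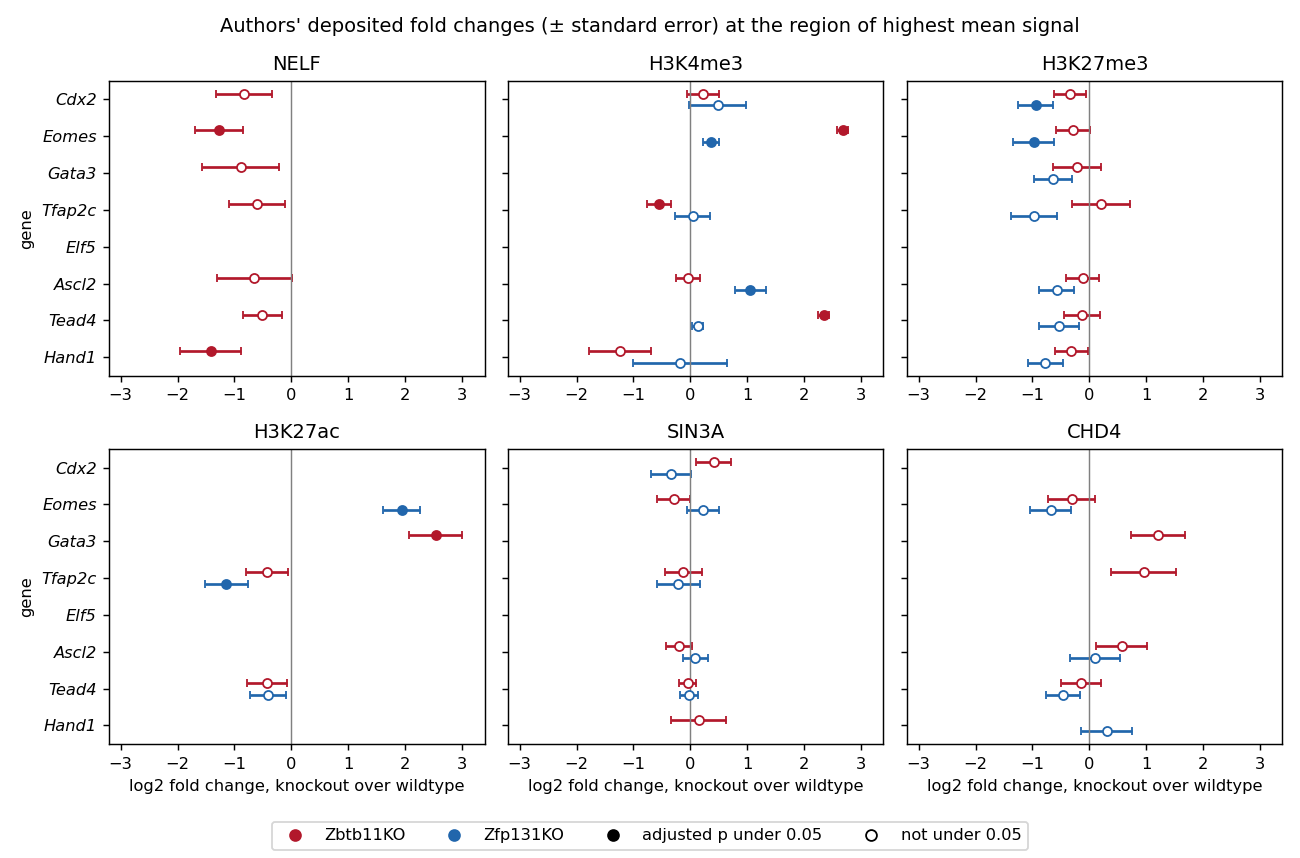
Log2 fold change of the knockout over wildtype from the authors' deposited tables, ± standard error, at the region of highest mean signal of each gene, with Zbtb11KO above Zfp131KO; filled points have an adjusted p under 0.05. NELF lies below 0 at all 7 genes in Zbtb11KO (-1.42 to -0.51), H3K27me3 below 0 at all 7 in Zfp131KO (-0.98 to -0.53), and a gene with no point has no region in that table; NELF has no usable Zfp131KO table.

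H3K27me3 was lower at Cdx2 and Eomes in Zfp131KO. The authors' deposited table gave -0.94 ± 0.31 at Cdx2 (chr5:147299753-147309650, adjusted p = 0.0194) and -0.98 ± 0.36 at Eomes (chr9:118474878-118481749, adjusted p = 0.0377). Called lower were 2 of 7 members, where 6.59% of genes were called lower and 9.96% higher. The other 5 had -0.77 ± 0.31 (Hand1), -0.64 ± 0.33 (Gata3), -0.57 ± 0.31 (Ascl2), -0.53 ± 0.35 (Tead4) and -0.97 ± 0.40 (Tfap2c, a piece of 39 bp) in the authors' deposited table, with adjusted p of 0.0665 to 0.298. The median over members was -0.77, against -0.15 over genes. Over the whole gene, the leading Eomes region was another, small one at 0.16 (adjusted p = 0.875) in the authors' deposited table. At the right end of Gata3 the authors' deposited table held a second region (chr2:9886852-9888523) at -1.01 ± 0.33 with an adjusted p of 0.0175.

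Listed H3K27me3 reads were fewer in Zfp131KO at each of the 7 members. Cdx2 had 2722 reads over 8243 bp in Zfp131KO, against 6153 reads over 9898 bp in wildtype, and 6 pieces were listed in the gene and its windows, against 1 domain in wildtype. In Zfp131KO Eomes had 1693 reads, Hand1 1929 and Gata3 483, against 4526, 4039 and 1559 in wildtype. In Zfp131KO Ascl2 had 1417 reads, Tead4 609 and Tfap2c 556, against 2433, 1108 and 1078 in wildtype. The ratio of the 7 members ranged from 0.31 at Gata3 to 0.582 at Ascl2, with a median log2 ratio of -1.07 against -0.83 over all genes. In all, 54728 H3K27me3 domains held 3.72 M reads in Zfp131KO, against 43446 domains with 6.43 M reads in wildtype. More pieces with fewer reads were thus found over the whole list. Of genes, 37.6% were at most 0.5 of wildtype, as were 4 of the 7 members.

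In Zbtb11KO no member was called for H3K27me3, 0 of 7, where 6.46% of genes were called higher and 3.51% lower in the authors' deposited table. The fold changes in the authors' deposited table ran from -0.34 ± 0.28 at Cdx2 to 0.21 ± 0.51 at Tfap2c. Cdx2 had 4974 reads in a single domain of 9782 bp in Zbtb11KO, and the 7 members held 0.538 (Tfap2c) to 0.999 (Tead4) of their wildtype reads.

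**Figure D4:**
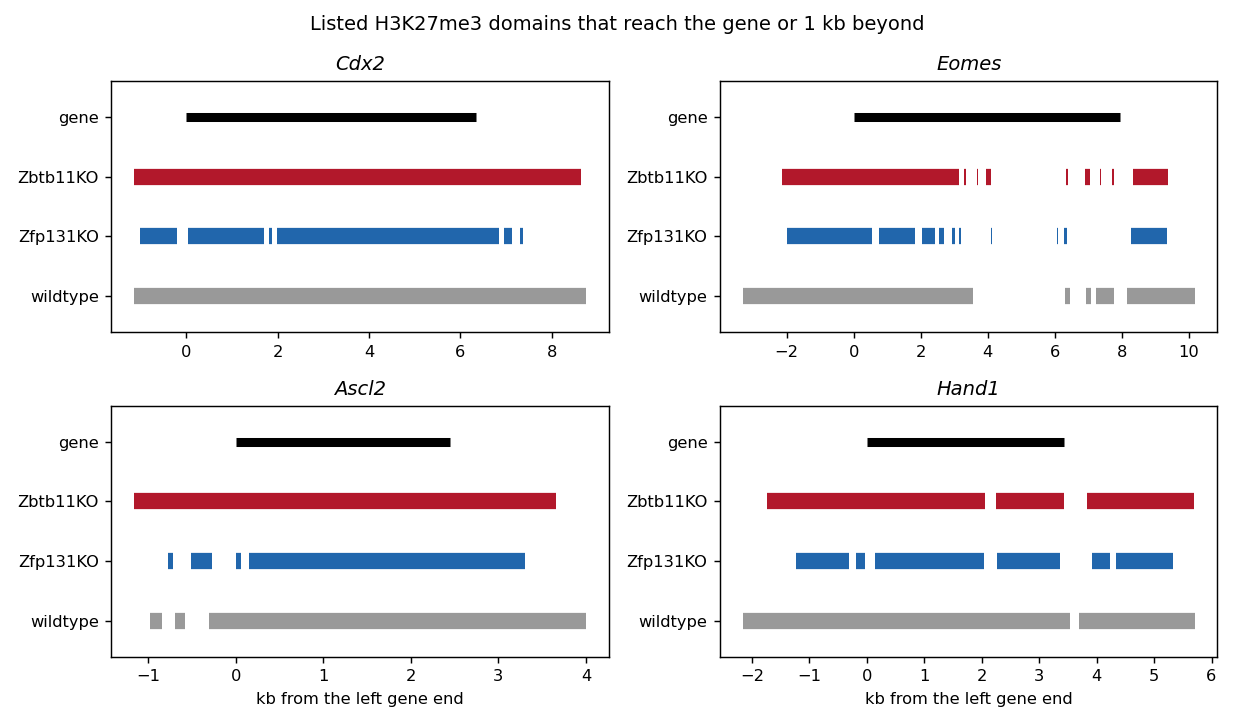
H3K27me3 domains listed in Zbtb11KO, Zfp131KO and wildtype at Cdx2, Eomes, Ascl2 and Hand1, drawn to scale by distance in kb from the left gene end, with the gene in black. In Zfp131KO more and shorter pieces are listed within 1 kb of the gene than in wildtype (6 against 1 at Cdx2, 10 against 5 at Eomes, 4 against 3 at Ascl2 and 6 against 2 at Hand1). Zbtb11KO lists 1 at Cdx2, 9 at Eomes, 1 at Ascl2 and 3 at Hand1, so more than wildtype at Eomes and Hand1 as well. The whole lists also hold more domains, 54728 in Zfp131KO and 58999 in Zbtb11KO against 43446 in wildtype, so more pieces are not particular to these genes.

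H3K27ac was listed at few members, and the called regions were small. It was found at 2 of 8 members in Zbtb11KO (Gata3 and Tead4) and 2 in Zfp131KO (Eomes and Tead4), against 40.7% and 42.1% of genes. In Zbtb11KO, a region of 414 bp beyond the left end of Gata3 (chr2:9856206-9856619) was higher by 2.54 ± 0.47 (adjusted p = 2.7e-06) in the authors' deposited table. The left end is the 3′ end of this minus-strand gene, so the region lay away from its promoter entry. Zbtb11KO listed 104 reads there, and neither Zfp131KO nor wildtype listed a domain. That was 1 of 3 members, where 3.7% of genes were called higher and 9.94% lower. A CHD4 event of 52.7 reads was listed in Zbtb11KO at the same end and none in wildtype, and the authors' deposited table gave CHD4 there as 1.21 ± 0.48 with an adjusted p of 0.0793. In Zfp131KO, Eomes was higher by 1.94 ± 0.32 over 71 bp (adjusted p = 5.78e-08) and Tfap2c stood at -1.14 ± 0.38 over 172 bp (adjusted p = 0.014), a lower value, in the authors' deposited table. These are 1 member higher and 1 lower of 3, where 4.56% of genes were called higher and 11.1% lower. Each of these 3 regions came from the list of 1 genotype alone, the knockout at Gata3 and Eomes and wildtype at Tfap2c. Among all H3K27ac regions over the knockout list alone, the median was 1.1 in Zbtb11KO and 1.02 in Zfp131KO. Over the wildtype list alone it was -0.79 and -0.98. The direction of the 3 calls thus follows how their regions were found, and the calls are no independent support for a change. None of these 3 calls was left among regions at or above the median signal. The reads behind them were few: 17 reads at Eomes in Zfp131KO with none listed in wildtype, and none listed at Tfap2c in Zfp131KO against 29 in wildtype. Tead4, with the most H3K27ac of the members, had 41 reads in Zbtb11KO and 66 in Zfp131KO, against 182 in wildtype, while the authors' deposited table gave -0.43 ± 0.35 and -0.41 ± 0.32 (adjusted p 0.378 and 0.338).

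SIN3A and CHD4 were not called at any member. For SIN3A 0 of 6 were called in Zbtb11KO, where 5.6% of genes were higher and 2.33% lower, and 0 of 5 in Zfp131KO, where 5.62% were higher and 1.57% lower. The fold changes in the authors' deposited tables lay between -0.29 and 0.41 in Zbtb11KO and between -0.34 and 0.22 in Zfp131KO. At the strongest region, that of Tead4, the authors' deposited tables gave -0.04 ± 0.15 in Zbtb11KO and -0.02 ± 0.16 in Zfp131KO. SIN3A was listed at 6 of 8 members in Zbtb11KO, where 58.1% of genes had an event. Listed SIN3A reads in Zbtb11KO were 53.1 at Tfap2c against 280.8 in wildtype, a ratio scaled by total reads of 0.191 (95% exact interval 0.14 to 0.258, counting error only), with 1 event listed in Zbtb11KO and 4 in wildtype. At the leading Tfap2c region of the windows, the authors' deposited table gave -0.12 ± 0.32 with an adjusted p of 0.868. For CHD4 0 of 5 were called in Zbtb11KO, where 2.1% of genes were higher and 0.636% lower, and 0 of 4 in Zfp131KO, where 1.1% were higher and 6.09% lower. CHD4 events were listed at 3 of 8 members in Zbtb11KO (Gata3, Tfap2c and Tead4), where 6.27% of genes had one, and at 3 in Zfp131KO (Eomes, Tead4 and Hand1), where 12.5% did. Tead4 had 93.3 CHD4 reads in Zbtb11KO and 92.6 in Zfp131KO, against 62.7 in wildtype. The Eomes event of Zfp131KO had 52.2 reads 990 bp from the left end, and wildtype had one of 62.5 reads at 1023 bp, just outside the window.

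Related gene groups were set beside the members in the authors' deposited tables. Of 15 other trophoblast genes with a NELF region, 5 were lower in Zbtb11KO and 0 higher (median -1.05), where 55.3% of all genes were lower and 0.0901% higher with a median of -0.97; in the authors' deposited table Aqp3, a water channel, had -1.91, Atp1b1, a sodium pump subunit, -1.48 and Dsp, a desmosome protein, -1.74 (adjusted p 2.1e-05, 0.000159 and 0.00303). Of 10 Hippo and TEAD partner genes, 5 were lower (median -0.88), with the smallest adjusted p in the authors' deposited table at Nf2, the upstream Hippo regulator (-1.59), and at Yap1, the TEAD co-activator (-1.29). Of 13 family relatives of the members, 5 were lower and 1 higher (median -1.01), with the smallest adjusted p in the authors' deposited table at Cdx1, a Cdx2 paralog (-2.49), and a larger change at Tfap2b, a Tfap2c paralog (-3.22, adjusted p = 0.0029). All 6 genes of the inner cell mass that oppose the members were lower (median -1.90), with Zfp42 at -2.00, Sox2 at -1.93 and Pou5f1 at -1.87 in the authors' deposited table.

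For H3K27me3 in Zfp131KO, 2 of 20 other trophoblast genes were lower and 1 higher (median -0.35, against -0.15 over genes), where 6.59% of all genes were lower and 9.96% higher. In the authors' deposited table these were Nr2f2, a nuclear receptor, at -1.32 and Esx1, a placental homeobox gene, at -0.95, and Cldn4, a tight junction claudin, at 1.73 (adjusted p 0.00163, 0.0436 and 0.00021). The family relatives, which share Tead genes with the Hippo list, had 0 of 12 called and a median of -0.68. Of 3 Hippo genes, 1 was lower and 0 higher (median -0.74), and of 2 inner cell mass genes, 1 was higher and 0 lower (median 1.71). In the authors' deposited table these were Lats2 at -1.32 and Esrrb at 1.64 (adjusted p 0.0186 and 0.0237). For H3K27ac in Zbtb11KO, 3 of 5 inner cell mass genes were higher and 0 lower (median 1.17), where 3.7% of all genes were higher and 9.94% lower with a median of -0.13, and the authors' deposited table gave Zfp42 at 1.65, Nanog at 1.40 and Sox2 at 1.17. The same comparison had 1 of 8 other trophoblast genes higher and 2 lower (median -0.67), 0 of 5 relatives higher and 2 lower (median -0.71), and 0 of 9 Hippo genes higher and 1 lower (median 0.01). In the double knockout, listed H3K4me3 reads were at least 2 times wildtype at 9 of 16 other trophoblast genes, 5 of 10 Hippo genes, 5 of 11 relatives and 0 of 5 inner cell mass genes, against 3 of 6 members and 19.7% of all genes. The median log2 ratios were 1.14, 1.04, 0.76 and 0.53 in that order, against 1.24 for the members and 0.72 over genes. These reads are not scaled for depth.

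The wildtype lists were checked against cell type markers. H3K4me3 was listed at 4 of 5 ES cell markers, with Esrrb at 0 in these windows, and serine-5 polymerase at 5 of 5, with 6178 to 14596 reads. The fibroblast markers had 0 of 4 with a polymerase domain, and the differentiated trophoblast markers Prl3d1, Tpbpa, Gcm1 and Plac1 were at 0 in the lists of H3K4me3, H3K27ac, H3K27me3, NELF and polymerase. The primitive endoderm markers had 2 of 4 with a polymerase domain, with Gata4 and Sox17 at 0, and the neural markers had 3 of 3, with 41 to 1267 reads. The event lists rest on 24.0 to 71.6 M reads per group.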

How the data were processed

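The submitters' processing notes name the build mm10 and the tools Bowtie 1.0.1, bedtools and DESeq2 1.28.1. The lists are 23: event lists, in which the authors deposited read counts assigned to each binding event, summed over replicates, with a log2 fold over control and a log2 p score, per the file headers, and domain lists, in which they deposited read counts and a p-value per domain. The 11 tables used hold the mean signal, log2 fold change, standard error and p-value of each region as deposited by the authors from DESeq2. No values per library were in these files, so the planned count test (edgeR) gave way to the authors' tables.

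From these, regions overlapping 1 kb around either gene end (RefSeq, GRCm38.p6) were taken, and the region with the highest mean signal stood for the gene. For H3K27me3 and H3K27ac the mean signal fell with width (Spearman correlation -0.497 to -0.235), so this rule can pick a short piece over the main domain. For the other targets the correlation was 0.095 to 0.942. Domain ratios used stretches joined across genotypes, and NELF ratios were divided by each header's total of reads; both needed 50 wildtype reads. Intervals cover counting error only. All 8 members are named, with at most 3 genes per other list by smallest adjusted p. Members and lists were chosen with earlier results of these data known. The NELF table for Zfp131KO, identical to that for Zbtb11KO, and the SIN3A list for Zfp131KO, identical to that of CHD4, were not used. The regions of the SIN3A table for Zfp131KO overlap that CHD4 list in 15.6% of cases. Scripts ran in Python 3.11.15 with pandas 2.3.3 and scipy 1.17.1, and the centred test was tested on simulated data.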

Additional observations from a re-analysis of the deposited data

How the results depend on the processing

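Pairs of a single gene's call and an alternative were counted where the alternative left a region at the gene. Of these, 422 stayed on the same side of the threshold, among them 30 uncalled values that changed sign, which have no called direction. In 15 the call was lost with its sign kept, 9 gained a call, and 3 called values changed sign, whether or not they were still called. Calls whose region dropped out are in none of these counts, so more calls were lost than the 15 counted. Among them were H3K27ac calls when regions under the median signal were left out. At an adjusted p under 0.01, 0 members were lower for NELF in Zbtb11KO, 0 for H3K27me3 in Zfp131KO, 0 for H3K4me3 in Zbtb11KO and 0 for H3K27ac in Zfp131KO, and 1 was higher for H3K4me3 in Zfp131KO. With fold changes centred on the table median, 0 were lower for NELF and 0 for H3K4me3 in Zbtb11KO. Among regions at or above the median signal, 1 was lower for NELF, 2 for H3K4me3 in Zbtb11KO and 1 for H3K27me3 in Zfp131KO, and 0 were called for H3K27ac. With 500 bp windows 0 were higher for H3K27ac in Zfp131KO, and with 5 kb windows 2 were lower. With the region closest to a gene end, 1 (Tfap2c) was lower for H3K27me3 in Zbtb11KO. The widest region and the whole gene were chosen after seeing the data: the widest left 1 lower for NELF, and the whole gene 0 higher for H3K27ac in Zbtb11KO, 0 lower in Zfp131KO and 1 lower for H3K27me3 in Zfp131KO. The sign changed at Tfap2c for H3K27ac in Zfp131KO over the whole gene (0.29) and at Eomes for H3K27me3 in Zfp131KO with 5 kb windows and the whole gene (0.16 in both). Such a change needs no call in the other direction, and the Eomes value over the whole gene was not called. The cause was not tested.

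In lists kept to a p at or below their own median, members with an event or domain were 1 for CHD4 in Zbtb11KO, 1 for CHD4 in Zfp131KO, 1 for H3K27ac in Zfp131KO, 1 for ZBTB11, 0 for ZFP131, 0 for NELF in the double knockout, 1 in Zbtb11KO and 1 in Zfp131KO, and 2 for SETD1A in wildtype. With 5 kb windows they were 5 for CHD4 in Zbtb11KO, 5 in Zfp131KO and 2 in wildtype, and 5 for ZBTB11. With Cdx2 kept in, the median NELF log2 ratio of the double knockout scaled by the sum of reads over listed events was 0.65. Cdx2 stood at 0.65, Ascl2 at 0.72, Tead4 at 1.30 and Hand1 at 0.33. Scaled by total reads, the median was -2.52 over the whole gene, where Tfap2c also enters, and -1.86 in the windows. Cdx2 is kept in both, and it was left out of the main NELF median after seeing the data. The H3K4me3 median was 0.48 scaled by the reads in domains and 1.48 over the whole gene. No paired analysis was possible because the files hold no values per library, and leaving out a replicate and TMM scaling were not run for the same reason. Depth per library is unknown for the domain lists.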
